A study of Homo sapiens with 6 samples.

Results

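The genes described here are 44 components of Wnt and beta-catenin signalling, picked by name: ligands, Frizzled and LRP receptors, secreted inhibitors, the destruction complex, Dishevelled proteins, TCF/LEF factors, feedback inhibitors and R-spondin receptors. A gene was included when a row of the array table carried its symbol alone. This gave 43 rows for 42 of the 44 genes, among 21214 rows with a gene symbol and 33297 rows in all. DKK3 had 2 rows, and TCF7 and PORCN had no row under their own symbol. The cells were MDA-MB-231, an established triple-negative breast cancer line with a mesenchymal appearance. The control group expressed a control short hairpin RNA (shRNA). The remaining groups carried TIP-1 shRNA 162 or TIP-1 shRNA 159, which target the TAX1BP3 transcript. Each group held 2 clones named as independent, each read on 1 Human Gene 1.0 ST array after overnight culture of freshly seeded cells.

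In canonical Wnt signalling, a secreted Wnt protein bridges a Frizzled receptor and LRP5 or LRP6, which recruits Dishevelled and holds back the destruction complex of APC, axin, GSK3B and casein kinase 1. Beta-catenin (CTNNB1) then accumulates and acts with TCF/LEF factors on targets such as AXIN2, which feeds back on the pathway. WNT5A and related ligands also act without beta-catenin, on cell polarity and motility, and are studied for that role in invasive breast cancer cells. TIP-1 is a single PDZ domain that binds the tail of beta-catenin, so the comparison of shRNA with control bears on whether transcripts of this pathway differed when TIP-1 was lowered.

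Values are log2 signals per probe set, as normalized by the authors, so a difference of 1 is a 2-fold difference in signal. A row was called when its adjusted p from limma, taken over all 21214 rows, was under 0.05. Clones of the same group correlated at 0.996 to 0.997 over these rows. The TAX1BP3 row, which is also annotated to P2RX5-TAX1BP3, read 11.65 and 11.56 in the control clones, 9.85 and 10.01 with shRNA 162, and 10.40 in both clones with shRNA 159. The 4 shRNA clones therefore lay below both control clones (exact two-sided permutation p = 0.0667, the smallest that 15 splits allow). Of 6 mesenchymal markers, VIM, CD44, MSN, CAV1 and ZEB1 lay above the upper quartile of every array and SPARC (7.88) did not. Of 8 receptor and epithelial genes listed as low in this line, only PGR (5.97) lay below the lower quartile of every array. ESR1 (6.38), CDH1 (6.34), ELF3 (6.57), EPCAM (7.42), GATA3 (7.86) and ERBB2 (8.04) lay between the quartiles, and KRT8 (12.11) was bright. EPCAM, an epithelial adhesion protein, read 7.01 and 7.09 in control, 7.16 and 7.25 with shRNA 162, and 7.97 and 8.02 with shRNA 159, and its part in the results for shRNA 159 was not tested. Of 4 leukocyte and 6 stromal markers measured, CD68 (11.66) was the only gene above the upper quartile, and PTPRC stood at 5.07. Array signal from a culture cannot tell fewer cells that hold a transcript from less transcript per cell.

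The upstream sequence is given for 3 members on which the results below turn. DKK1, a secreted inhibitor that is also a beta-catenin target, is shown for its 7-base TCF/LEF motif. It was the only matched member whose upstream window held either form searched, CTTTGAA or CTTTGAT. FZD8 and LGR4 were picked from the members that were lower with TIP-1 shRNA. WNT5A was lower too, and its window is not shown. Each run is the 250 bases before the RefSeq transcription start in GRCh38.p14, 5′ to 3′ on the strand of the gene. In DKK1 the capitals mark CTTTG, the core of the TCF/LEF motif, on either strand. In FZD8 they mark the GC box GGGCGG or its reverse complement, and LGR4 held no GC box in this window. An upstream window of WNT5A held the GC box too.
DKK1 (chr10:52314031-52314280, plus strand): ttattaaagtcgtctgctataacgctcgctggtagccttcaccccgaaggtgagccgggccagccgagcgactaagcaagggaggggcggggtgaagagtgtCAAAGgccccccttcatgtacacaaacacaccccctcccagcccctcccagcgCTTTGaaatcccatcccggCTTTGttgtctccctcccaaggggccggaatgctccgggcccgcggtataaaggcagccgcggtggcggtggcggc
FZD8 (chr10:35642297-35642546, minus strand): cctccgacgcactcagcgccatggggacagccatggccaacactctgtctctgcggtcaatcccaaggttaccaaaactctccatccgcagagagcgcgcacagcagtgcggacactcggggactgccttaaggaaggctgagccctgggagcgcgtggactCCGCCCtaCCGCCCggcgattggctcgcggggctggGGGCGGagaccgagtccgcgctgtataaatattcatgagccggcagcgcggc
LGR4 (chr11:27472791-27473040, minus strand): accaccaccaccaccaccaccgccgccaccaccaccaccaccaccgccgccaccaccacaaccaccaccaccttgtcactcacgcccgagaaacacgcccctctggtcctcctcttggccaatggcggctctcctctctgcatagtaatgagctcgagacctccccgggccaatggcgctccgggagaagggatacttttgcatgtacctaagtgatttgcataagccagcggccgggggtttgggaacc
Each window ends at the base before the annotated start. The TCF/LEF motif was searched on both strands as CTTTGAA and CTTTGAT, both of which contain the core CTTTG. Other 7-base forms that begin with the core were not searched. RefSeq starts were matched for 31 of the 44 members (42 starts). CTTTGAA was found in 1 of these windows, that of DKK1, 95 bases before the start, and in 3.81% of all 35116 windows of this length. CTTTGAT was found in 0 of the 42 windows of the members and in 2.26% of all windows. The core was present in 11 of the 42 windows of the members and in 42.1% of all windows. The GC box was present in 26 of the 42 windows of the members and in 42.6% of all windows. A match describes letters in a window and is not evidence of binding.

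The direct feedback targets of beta-catenin were examined first, as the transcripts that follow its activity most closely. Of 8 such members, 7 were measured. AXIN2, a scaffold of the destruction complex and a standard readout of the pathway, was nearly level across the groups. Its clones read 7.38 and 7.46 in control, 7.22 and 7.43 with shRNA 162, and 7.40 and 7.42 with shRNA 159. The 3 groups overlapped. The log2 change of AXIN2 was -0.09 with shRNA 162 (95% interval -0.30 to 0.12, limma adjusted p = 0.594) and -0.01 with shRNA 159 (-0.22 to 0.20, adjusted p = 0.974). Changes of AXIN2 within these intervals remain possible with 2 clones a group, and the intervals are not limits of detection.

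NKD1, which binds Dishevelled, and the membrane E3 ligases RNF43 and ZNRF3, which remove Frizzled from the cell surface, did not pass in any comparison. The clones of NKD1 read 7.36 and 7.42 in control, 7.31 and 7.38 with shRNA 162, and 7.19 and 7.43 with shRNA 159. For RNF43 the values were 6.90 and 7.18 in control, 7.07 in both shRNA 162 clones, and 6.88 and 6.91 with shRNA 159. ZNRF3 gave 8.34 and 8.47, then 8.37 and 8.49, then 8.42 and 8.54, in the same order. In each of these genes the shRNA clones overlapped the control clones. LEF1, a DNA-binding partner of beta-catenin, read 9.51 and 9.52 in control, 9.44 in both shRNA 162 clones, and 9.51 and 9.50 with shRNA 159. Its 4 shRNA clones lay below both control clones, by a change of only -0.05 for the mean of both hairpins (95% interval -0.19 to 0.09, limma adjusted p = 0.732).

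DKK1 and LGR5 were the feedback targets that rose, both with shRNA 162. DKK1 (probe set 7927631), which blocks LRP5 and LRP6, read 12.07 and 11.89 in control, 12.30 and 12.34 with shRNA 162, and 12.05 and 11.96 with shRNA 159. The shRNA 162 clones stood above the other 4 clones, whose groups overlapped. The increase was 0.34 (SE 0.09, 1.27-fold, limma adjusted p = 0.0462) with shRNA 162 and the change was 0.02 (95% interval -0.18 to 0.22) with shRNA 159. LGR5 (probe set 7957140), an R-spondin receptor that marks stem cells in the gut, read 5.79 in both control clones, 6.04 and 6.26 with shRNA 162, and 5.77 and 5.81 with shRNA 159. The increase was 0.36 with shRNA 162 (SE 0.09, limma adjusted p = 0.0449). The control and shRNA 159 clones of LGR5 lay below the lower quartile of every array (6.06 to 6.19), so this is a difference in array signal near the dim end and not an exact change in transcript level. LGR5 did not pass after quantile normalization (0.30, adjusted p = 0.0599) or with a variance trend (adjusted p = 0.0591). Neither DKK1 nor LGR5 passed when any 1 control or shRNA 162 clone was left out, with adjusted p between 0.0788 and 0.245 for DKK1 and between 0.0511 and 0.264 for LGR5.

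**Figure D1:**
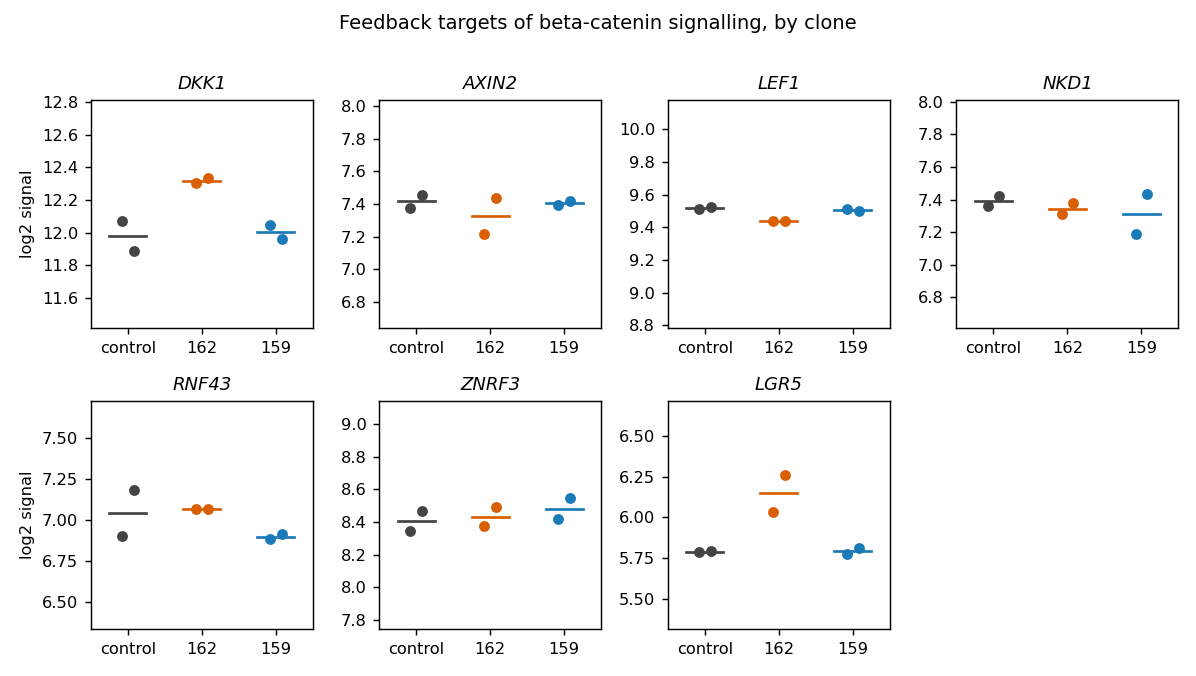
Log2 signal (y axis) of the 7 measured feedback targets in each clone (points) with the group mean (line, n = 2), for control, shRNA 162 and shRNA 159 clones. Each panel spans the same range of 1.4 log2 units. The shRNA 162 clones stand apart for DKK1 (12.30 and 12.34) and LGR5 (6.04 and 6.26), and the groups overlap for AXIN2.

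With TIP-1 shRNA minus control, in which both hairpins weigh equally, WNT5A, FZD8 and LGR4 fell and no member rose. WNT5A (probe set 8088180, chromosome 3, 55465715 to 55505263) encodes a ligand of the branch that does not need beta-catenin. Its clones read 7.03 and 7.21 in control, 6.43 and 6.68 with shRNA 162, and 6.70 and 6.57 with shRNA 159. FZD8 (probe set 7933075, chromosome 10, 35638247 to 35642296), a Frizzled receptor, read 9.25 and 9.35, then 8.85 and 8.80, then 8.75 and 9.03. LGR4 (probe set 7947199, chromosome 11, 27365961 to 27472790), the R-spondin receptor that protects Frizzled from RNF43 and ZNRF3, read 9.59 and 9.67, then 8.99 and 8.92, then 9.36 and 9.25. In all 3 genes the 4 shRNA clones lay below both control clones.

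WNT5A fell by 0.52 (SE 0.09, limma adjusted p = 0.0187), FZD8 fell by 0.44 (SE 0.09, adjusted p = 0.0311) and LGR4 fell by 0.50 (SE 0.07, adjusted p = 0.00706). These are 1.44-fold, 1.36-fold and 1.41-fold differences. Thus 3 of 42 members passed, which is 7.14%, against 4.62% of all rows tested. Among all rows 3.01% were called higher and 1.61% lower, or 565 higher and 459 lower rows after quantile normalization against 639 and 341 without it. The median absolute change was 0.0869 over the members and 0.0893 over all rows. Differences between the hairpins do not enter the error of this fit. When the 4 shRNA clones were treated as 1 group, or the hairpin as a random block, 0 members passed (LGR4 adjusted p = 0.222 and 0.343, WNT5A 0.109 and 0.238, FZD8 0.14 and 0.309). Of all rows, 0.335% and 0.127% passed in these settings, against 4.62% in the main fit. Without control clone 1 or control clone 2, the calls of the members were lost, and most calls over all rows were lost too. The change of LGR4 was then -0.54 and -0.46, with 1 control clone left. Without either shRNA 162 clone FZD8 lost its call, at changes of -0.45 and -0.43, and fewer of all rows were called too.

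The shRNA clones and control clones did not overlap for 9 of 42 members, which is 21.4%, against 21.9% of all rows. Below both controls were WNT5A, FZD4, FZD8, DVL2, LEF1 and LGR4, and above them were AXIN1, TCF7L2 and BCL9. FZD4 changed by -0.14 (95% interval -0.30 to 0.01), DVL2 by -0.24 (-0.42 to -0.06), AXIN1 by 0.15 (-0.0048 to 0.30), TCF7L2 by 0.25 (0.07 to 0.43) and BCL9 by 0.23 (0.06 to 0.40), none of which passed (limma adjusted p between 0.127 and 0.282). With a variance trend in the model, 8 of 42 members passed, DVL2, TCF7L2 and BCL9 among them, beside 10.7% of all rows.

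**Figure D2:**
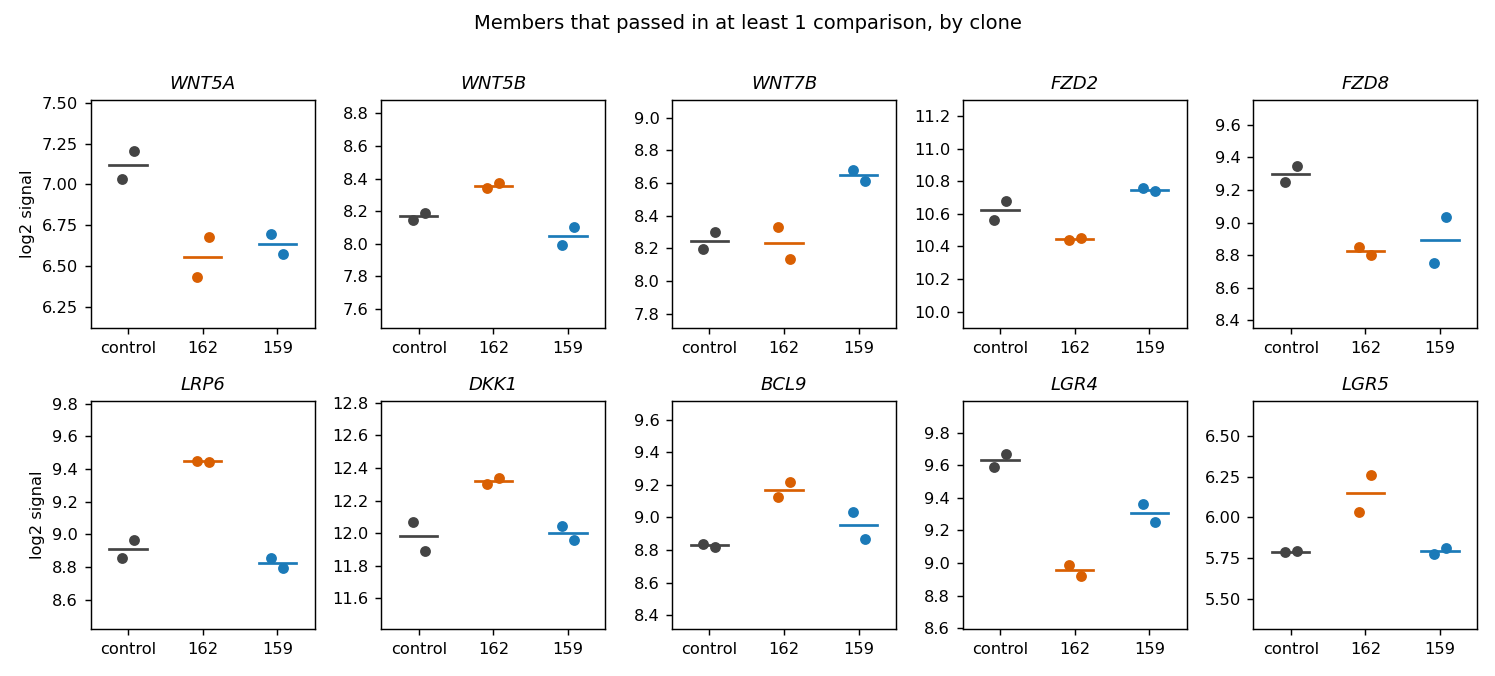
Log2 signal (y axis) of the 10 members that passed in at least 1 comparison, in each clone (points) with the group mean (line, n = 2), for control, shRNA 162 and shRNA 159 clones. Each panel spans the same range of 1.4 log2 units. For WNT5A, FZD8 and LGR4 all 4 shRNA clones lie below both control clones, while for LRP6 only the shRNA 162 clones (9.45 each) stand apart.

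With shRNA 162 alone 7 of 42 members passed, LRP6, DKK1, BCL9 and LGR5 higher and WNT5A, FZD8 and LGR4 lower. LRP6 (probe set 7961339, chromosome 12, 12116025 to 12267044), the co-receptor that is phosphorylated when Wnt binds, read 8.85 and 8.96 in control, 9.45 in both shRNA 162 clones, and 8.85 and 8.79 with shRNA 159. The shRNA 162 clones were far above the others. LRP6 rose by 0.54 (SE 0.08, 1.45-fold, limma adjusted p = 0.00537). Its relative LRP5 changed by -0.02 (95% interval -0.26 to 0.22). BCL9 (probe set 7904907), an adaptor that joins beta-catenin to its coactivators, read 8.84 and 8.82 in control, 9.12 and 9.22 with shRNA 162, and 9.03 and 8.87 with shRNA 159. It rose by 0.34 with shRNA 162 (SE 0.09, adjusted p = 0.0424).

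LGR4 fell by 0.67 with shRNA 162 (SE 0.08, 1.60-fold, limma adjusted p = 0.00246), WNT5A fell by 0.57 (SE 0.11, adjusted p = 0.0156) and FZD8 fell by 0.47 (SE 0.10, adjusted p = 0.026). The 7 calls are 16.7% of the members, against 9.52% of all rows, of which 5.88% were higher and 3.64% lower. After quantile normalization all rows split into 1078 higher and 1074 lower, against 1247 and 772 without it, and the members into 3 and 3, LGR5 being lost. The median absolute change was 0.119 over the members and 0.116 over all rows. LGR4 passed whichever clone was left out, and LRP6 did except without control clone 1 (0.48, adjusted p = 0.0539). Without any 1 control or shRNA 162 clone, which leaves 1 clone in that group, fewer members passed and fewer of all rows passed too.

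With shRNA 159 alone 0 of 42 members passed limma at an adjusted p under 0.05, against 2.53% of all rows (1.69% higher and 0.839% lower), and 7 members had an unadjusted p under 0.05. The changes furthest from 0 were those of WNT5A at -0.48 (95% interval -0.73 to -0.24, adjusted p = 0.0612), FZD8 at -0.41 (-0.64 to -0.17, adjusted p = 0.0938), WNT7B at 0.40 (0.19 to 0.61, adjusted p = 0.0678) and LGR4 at -0.32 (-0.51 to -0.14, adjusted p = 0.0897). FZD8 passed without shRNA 159 clone 2. When only the 10607 brighter rows were tested, FZD8, LGR4 and WNT7B passed, 3 of 27 members, beside 8.92% of those rows. In the main fit the number of members called with both hairpins in the same direction was 0 of 42, against 1.09% of all rows. With a variance trend FZD8, LGR4 and WNT5A were called lower with each hairpin, beside 16.4% (shRNA 162) and 5.36% (shRNA 159) of all rows. With brighter rows only, FZD8 and LGR4 were called lower with each, beside 29.1% and 8.92% of those rows. The share of rows called with both hairpins was not counted in these settings. Both hairpin comparisons use the same control clones. The median absolute change was 0.0961 over the members and 0.0895 over all rows.

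**Figure D3:**
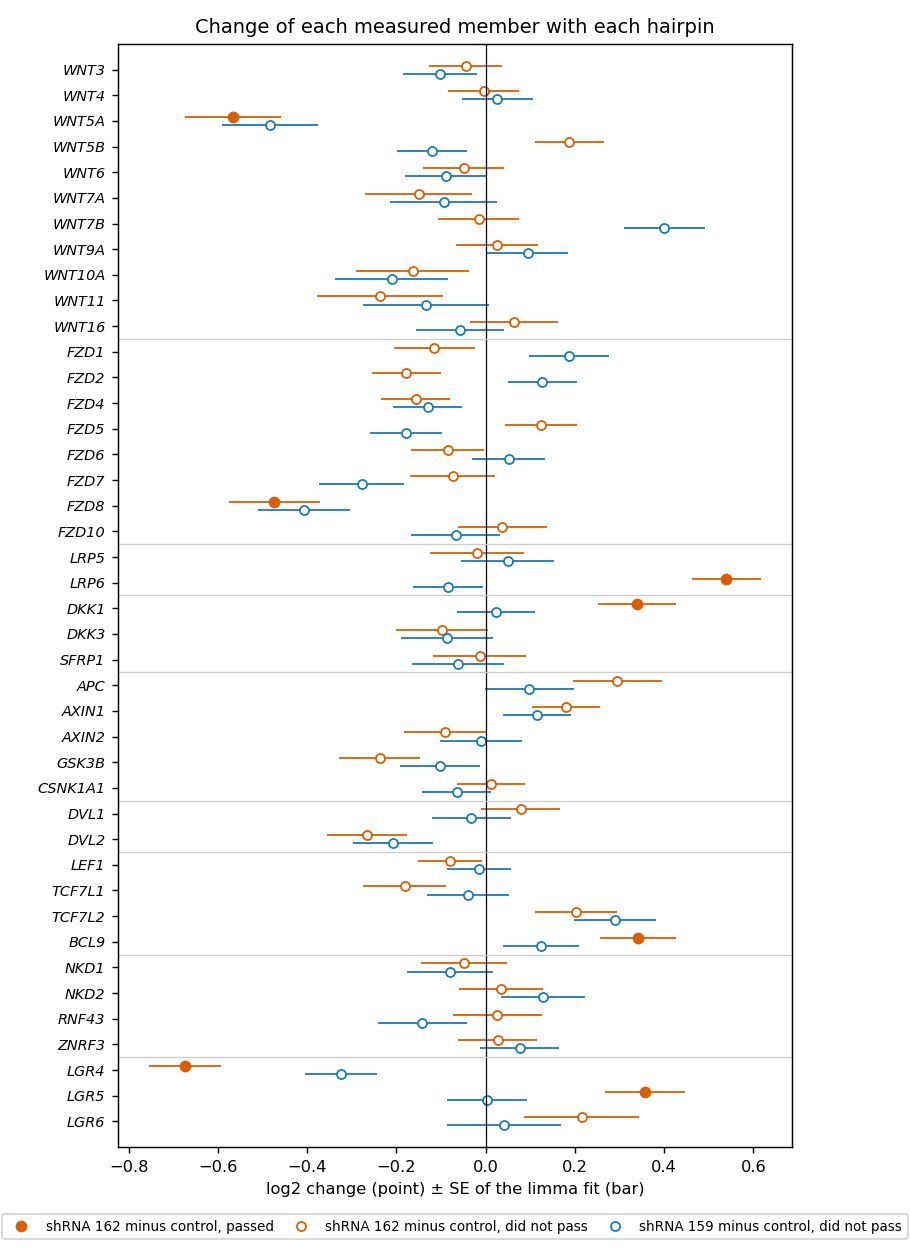
Log2 change (x axis, point) with its standard error from the limma fit (bar) of each of the 42 measured members (y axis, grouped by role) for shRNA 162 minus control and shRNA 159 minus control. Filled points passed. WNT5A and FZD8 lie at -0.57 and -0.47 with shRNA 162 and at -0.48 and -0.41 with shRNA 159, and LRP6 lies at 0.54 and -0.08.

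Setting the hairpins against each other shows which members differed between clones with the same target. LRP6 was lower with shRNA 159 than with shRNA 162 by a log2 difference of -0.62 (SE 0.08, 1.54-fold, limma adjusted p = 0.00303), and LGR5 and WNT5B were lower too. LGR4, WNT7B and FZD2 were higher with shRNA 159. WNT7B (probe set 8076734), a ligand of canonical signalling in mammary and lung epithelium, read 8.20 and 8.30 in control, 8.33 and 8.14 with shRNA 162, and 8.68 and 8.61 with shRNA 159. WNT5B (probe set 7953012), a close relative of WNT5A, read 8.15 and 8.19, then 8.34 and 8.37, then 7.99 and 8.10. FZD2 (probe set 8007637), a receptor of WNT5A in mesenchymal cells, read 10.56 and 10.68, then 10.44 and 10.45, then 10.76 and 10.74. In these genes the clones of the 2 hairpins did not overlap, and for WNT5B and FZD2 the control clones lay between them.

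The differences, shRNA 159 minus shRNA 162, were 0.42 for WNT7B (SE 0.09, limma adjusted p = 0.0286), 0.35 for LGR4 (adjusted p = 0.034), 0.30 for FZD2 (adjusted p = 0.0473), -0.31 for WNT5B (adjusted p = 0.0468) and -0.35 for LGR5 (adjusted p = 0.0484). WNT5A and FZD8 differed by 0.08 (95% interval -0.16 to 0.33) and 0.07 (-0.17 to 0.30) and did not pass. In all 6 of 42 members passed, which is 14.3%, against 8.65% of all rows (4.02% higher and 4.64% lower). The median absolute difference was 0.0988 over the members and 0.113 over all rows. LRP6 kept its call without any 1 clone, and each of the others lost it without at least 1 clone. Fewer of all rows were called in each of these fits too. With the replicate number as a block FZD2 did not pass (adjusted p = 0.0512) and 5 members did.

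The remaining members are given by role. The other ligands, WNT3, WNT4, WNT6, WNT7A, WNT9A, WNT10A, WNT11 and WNT16, passed in no comparison, and the 11 ligands had a median change of -0.05 with shRNA 162 and -0.09 with shRNA 159. WNT11, another ligand of the polarity branch, varied between clones of 1 group, from 7.27 to 7.70 with shRNA 159, and changed by -0.19 for the mean of both hairpins (95% interval -0.47 to 0.10). Among the 8 Frizzled receptors, FZD1, FZD4, FZD5, FZD6, FZD7 and FZD10 did not pass. FZD7, a receptor of canonical signalling in triple-negative cells, read 8.68 and 8.76 in control, 8.76 and 8.52 with shRNA 162, and 8.47 and 8.41 with shRNA 159. Its shRNA 159 clones lay below the other 4, at a change of -0.28 (95% interval -0.50 to -0.06, limma adjusted p = 0.225).

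Of the other secreted inhibitors, SFRP1, which binds Wnt proteins, had log2 changes of -0.01 and -0.06 with shRNA 162 and 159. The brighter of the DKK3 rows changed by -0.10 and -0.09, and the dimmer by -0.15 and -0.28, with no call in either row. No member of the destruction complex passed in the fit to all 6 arrays. APC, the scaffold that holds beta-catenin, read 7.42 in both control clones, 7.77 and 7.66 with shRNA 162, and 7.65 and 7.39 with shRNA 159, so the shRNA 162 clones lay above control and the shRNA 159 clones overlapped it. Its change with shRNA 162 was 0.30 (95% interval 0.07 to 0.52, limma adjusted p = 0.107). It passed when only the control and shRNA 162 arrays were fitted, where 11.4% of all rows were called against 9.52% in the main fit. Leaving out 1 shRNA 159 clone gives this same test. GSK3B, the kinase that marks beta-catenin for degradation, changed by -0.24 with shRNA 162 (95% interval -0.44 to -0.03, limma adjusted p = 0.145), and passed when only the brighter rows were tested, of which 29.1% were called. CSNK1A1, its priming kinase, changed by 0.01 (-0.16 to 0.19). DVL1 changed by 0.08 and TCF7L1, mostly a repressor, by -0.18 with shRNA 162. NKD2 changed by 0.03 and LGR6 by 0.22, and neither passed.

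From a wider list of 82 other Wnt pathway genes, 80 had a row of their own, of which 9 were dim in every group. For TIP-1 shRNA minus control 4 rose (FZD3, CSNK1G2, MYC and PRICKLE1) and 0 fell. With shRNA 162, 5 rose and 2 fell, and with shRNA 159, 3 rose and 0 fell. Between the hairpins 4 were higher and 2 lower with shRNA 159. These are 5%, 8.75%, 3.75% and 7.5% of the 80, beside 4.62%, 9.52%, 2.53% and 8.65% of all rows. CTNNB1, the transcript of beta-catenin itself, read 12.20 and 12.19 in control, 12.11 and 12.05 with shRNA 162, and 12.14 and 12.16 with shRNA 159. Its change was -0.08 for the mean of both hairpins (95% interval -0.23 to 0.06, limma adjusted p = 0.532).

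FZD3 (probe set 8145611), a Frizzled receptor of axon guidance and planar polarity, was called with each hairpin. It read 6.22 and 6.30 in control, 7.24 and 7.21 with shRNA 162, and 7.01 and 6.87 with shRNA 159. FZD3 rose by 0.97 with shRNA 162 (SE 0.08, 1.96-fold, limma adjusted p = 0.000469) and by 0.68 with shRNA 159 (SE 0.08, adjusted p = 0.00484). Its control clones lay just above the lower quartiles of the arrays (6.06 to 6.19). The fold is therefore a difference in array signal near the dim end and not an exact change in transcript level. CSNK1G2, a casein kinase that phosphorylates LRP6 at the membrane, read 10.34 and 10.32, then 10.77 and 10.89, then 10.88 and 10.87. CSNK1G2 rose by 0.50 (adjusted p = 0.0067) and 0.55 (adjusted p = 0.00902). Both genes had all 4 shRNA clones above both controls. With the hairpin as a random block neither passed for TIP-1 shRNA minus control (adjusted p = 0.0692 and 0.0807). Without control clone 1 or 2, FZD3 kept its call for that comparison. CSNK1G2 lost its call there, at changes of 0.53 and 0.52, and most calls over all rows were lost too. For shRNA 159 minus control FZD3 did not pass without control clone 1 (0.64, adjusted p = 0.0517), and CSNK1G2 did not without control clone 1 or 2 (adjusted p = 0.0719 and 0.0886). With shRNA 162 CSNK1G2 did not pass without control clone 1 or 2 or shRNA 162 clone 2 (adjusted p between 0.0534 and 0.0658).

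DVL3, another Dishevelled protein, fell by 0.61 with shRNA 162 (SE 0.08, limma adjusted p = 0.00315) and changed by 0.04 with shRNA 159. It read 9.45 and 9.47 in control, 8.85 in both shRNA 162 clones, and 9.56 and 9.44 with shRNA 159. AMER1, a partner of APC, rose by 0.46 with shRNA 162 (adjusted p = 0.011). PRICKLE1, a planar polarity protein, rose by 0.42 with shRNA 162 (adjusted p = 0.0317). TLE5, a short relative of the Groucho corepressors, rose by 0.40 with shRNA 159 (adjusted p = 0.0409). Of 12 transcriptional targets in the wider list, 2 passed with shRNA 162, which is 16.7%, against 9.52% of all rows. MYC rose by 0.59 (adjusted p = 0.00434) and PLAUR, the urokinase receptor, fell by 0.29 (adjusted p = 0.0452). With shRNA 159 0 of 12 passed, against 2.53% of all rows. MYC changed there by 0.27 (adjusted p = 0.17). It passed with shRNA 159 when only the brighter rows were tested or with a variance trend, beside 8.92% and 5.36% of the rows. DAAM1 and KREMEN1 passed only between the hairpins, at 0.49 and 0.32 higher with shRNA 159. DVL3, MYC and FZD3 passed with shRNA 162 whichever clone was left out. AMER1 and PLAUR did not pass without any 1 control or shRNA 162 clone, PRICKLE1 did not without control clone 1 or 2 or shRNA 162 clone 2 (adjusted p between 0.0991 and 0.199), and TLE5 did not without any 1 clone of the 6.

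The position of these genes was set beside their changes, with the 3 nearest measured genes on each side in GRCh38.p14. Over all rows 5.88% were called higher and 3.64% lower with shRNA 162. Around FZD3 on chromosome 8, 4 of 6 neighbours rose with shRNA 162 (median change of the 6, 0.73), FBXO16 by 0.99 and INTS9 by 0.95 among them. With shRNA 159 0 of 6 passed (median 0.07), although FZD3 itself rose. Around DVL3 on chromosome 3, 3 of 6 neighbours fell with shRNA 162 (median -0.39), EIF2B5, AP2M1 and ABCF3, and 0 of 6 passed with shRNA 159. Around LRP6 on chromosome 12, 2 of 6 rose with shRNA 162, DUSP16 by 0.71 and MANSC1 by 0.36. WNT5B lies on the same chromosome, and 3 of its 6 neighbours rose with shRNA 162, RAD52 by 0.69, ERC1 by 0.62 and ADIPOR2 by 0.50. WNT5B itself changed by 0.19 (limma adjusted p = 0.178). LGR5 and PRICKLE1 lie on chromosome 12 too. With shRNA 162, 1 of 6 neighbours rose and 1 fell around LGR5, and 0 of 6 passed around PRICKLE1.

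The same count was made for the members that fell with both hairpins combined. Around WNT5A 0 of 6 neighbours passed with either hairpin (medians 0.07 and -0.003). Around FZD8 1 of 6 was called with shRNA 162, and it was higher. Around LGR4 1 of 6 fell with shRNA 162, BDNF by 0.64 (median of the 6, -0.25), and LIN7C, the gene next to LGR4, changed by -0.10. Around DKK1, BCL9, FZD2, KREMEN1, PRICKLE1, MYC and PLAUR 0 of 6 passed with either hairpin. Around WNT7B 2 of 6 fell with shRNA 162, RIBC2 and FBLN1, and RIBC2 also fell with shRNA 159 (-0.41, limma adjusted p = 0.0414), the only neighbour called with that hairpin. With shRNA 162, 2 of 6 rose around CSNK1G2, 1 rose and 1 fell around LGR5, 1 rose around AMER1, and 1 fell around each of DAAM1 and TLE5. Calls of neighbouring genes that move with a member are given as measured, and their part in the member's change was not tested.

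**Figure D4:**
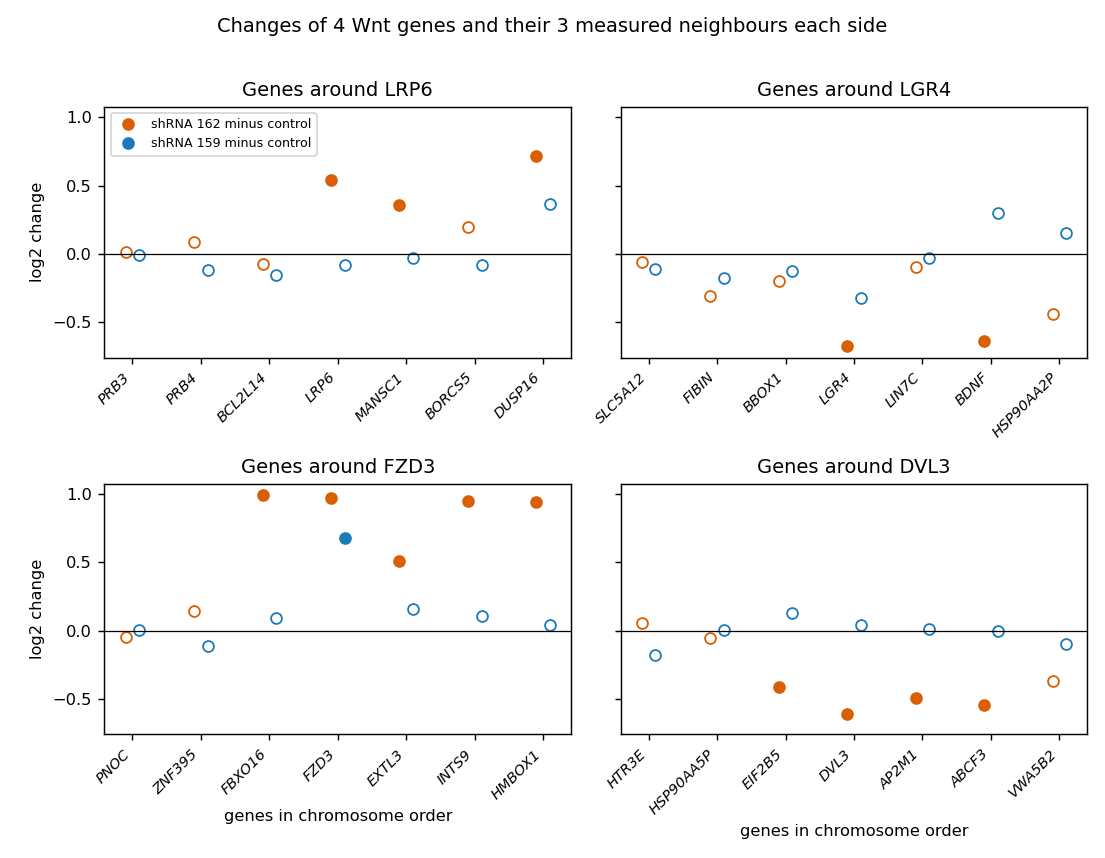
Log2 change (y axis) of LRP6, LGR4, FZD3 and DVL3 and of the 3 nearest measured genes on each side (x axis, in chromosome order) for shRNA 162 minus control and shRNA 159 minus control. Filled points passed. With shRNA 162, 4 of the 6 neighbours of FZD3 rose and 3 of the 6 neighbours of DVL3 fell, while with shRNA 159 no neighbour in these panels passed.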

How the data were processed

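The 6 arrays, 1 per clone, were grouped by their labels into control, shRNA 162 and shRNA 159. The deposited log2 signals came from Affymetrix's Exon Array Computational Tool, run by the authors, per the labels. Which version and which background, normalization and summary options they chose is not stated there. Base 2 was inferred from the range, 2.29 to 14.65. Gene symbols were read from the platform annotation: 19460 rows had 1 symbol, 1754 several and 12083 none. Values were used without further scaling. One model with 3 groups was fitted to all rows with a symbol with limma 3.58.1 in R 4.3.3 (3 residual and 5.31 prior degrees of freedom), with two-sided tests and Benjamini-Hochberg adjustment over 21214 rows. Errors with n = 2 are spreads between clones, and p-values measure only that spread. A gene with several rows was counted through its brightest. Members that passed in any comparison, or are feedback targets, have their value given in each clone. Other pathway genes are named where they passed, at most the 6 with the smallest p per comparison, and CTNNB1 always. Clone values of members outside this rule (FZD7, APC, WNT11), and the neighbours named, were chosen after their values were seen. The signal of TCF7 and PORCN was not analysed here, and only their upstream windows were searched. A dim row has every group mean below the lower quartile of each array. Members and lists were chosen with earlier results of these data known. The fit was tested on simulated data. Plots used matplotlib 3.10.9 in Python 3.11.15. Arrays give no depth; their number limits the precision.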

Additional observations from a re-analysis of the deposited data

Results flagged for a closer look

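The change against control differed between the hairpins, by a passed test of shRNA 159 minus shRNA 162 (limma, adjusted p under 0.05), for 6 members and 6 other pathway genes. Among members the log2 difference was -0.62 for LRP6 (0.54 with shRNA 162, -0.08 with shRNA 159), -0.35 for LGR5 (0.36, 0.003), -0.31 for WNT5B (0.19, -0.12), 0.30 for FZD2 (-0.18, 0.13), 0.35 for LGR4 (-0.67, -0.32) and 0.42 for WNT7B (-0.02, 0.40). Among other pathway genes it was 0.65 for DVL3 (-0.61, 0.04), 0.49 for DAAM1 (-0.32, 0.16), 0.37 for PLAUR (-0.29, 0.09), 0.32 for KREMEN1 (-0.14, 0.18), -0.33 for MYC (0.59, 0.27) and -0.47 for AMER1 (0.46, -0.01). Only LGR4 and MYC of these 12 had changes of the same sign beyond 0.25 with both hairpins.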

How the results depend on the processing

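The counts of called members, 3, 7, 0 and 6 for TIP-1 shRNA, shRNA 162 and shRNA 159 minus control and for shRNA 159 minus shRNA 162, depended on which rows were tested and on the error model. With the brighter rows only, TIP-1 shRNA minus control had 6 calls and shRNA 159 minus control had 3, both among 27 members, beside 18.8% and 8.92% of the rows tested. With all rows of the table the first, second and last counts were 0, 2 and 1, beside 0.679%, 2.08% and 1.78% of those rows. With a variance trend TIP-1 shRNA and shRNA 159 minus control had 8 and 5, beside 10.7% and 5.36% of all rows. At an adjusted p under 0.01 the first, second and last were 1, 2 and 1, beside 1.49%, 3.04% and 2.8% of all rows. With the 4 shRNA clones as 1 group, or the hairpin as a random block, the first was 0, beside 0.335% and 0.127%. With only the arrays compared the last was 2, beside 6.37%. Leaving out each array, which leaves 1 clone in a group, also moved the counts of members, and the numbers called over all rows moved too. For the other pathway genes the main counts were 4, 7, 3 and 6. With brighter rows only they became 7, 12 and 10 (first, second, last), among 43 genes. Of the rows tested there, 18.8%, 29.1% and 23.3% were called. With all rows they were 2, 4, 0 and 1, beside 0.679%, 2.08%, 0.333% and 1.78%. With a variance trend they were 7, 5 and 11 (all but shRNA 162 minus control), beside 10.7%, 5.36% and 14.2% of all rows. At an adjusted p under 0.01 they were 2, 4 and 1 (first, second, last), beside 1.49%, 3.04% and 2.8% of all rows. The first was 2 with the clones as 1 group and 0 with the hairpin as a random block, beside 0.335% and 0.127%. With only the arrays compared the last was 3, beside 6.37%. Leaving out each array gave 1 to 5, 3 to 9, 0 to 3 and 1 to 4. In these fits, each with 1 clone left in a group, the numbers called over all rows moved too, in every comparison. The ranges are therefore not particular to these genes. No called member or pathway gene changed sign. Among changes that were not called, leaving out each array moved TIP-1 shRNA minus control across 0 for AXIN2 (-0.105 to 0.00316, positive without shRNA 162 clone 1), RNF43 (-0.200 to 0.0834, positive without control clone 2) and ZNRF3 (-0.00991 to 0.114, negative without control clone 1). The replicate number as a block gave 3, 7, 0 and 5 members and 3, 6, 3 and 7 other genes. Of all rows, 4.77%, 10%, 2.75% and 9.35% were called with that block. It removed the calls of FZD2, of PRICKLE1 for the mean of both hairpins (adjusted p = 0.0539) and of PLAUR with shRNA 162 (0.0528). Same-numbered clones deviated together at correlations of -0.05, 0.26 and -0.03, so the numbers were not taken as pairs. The cause of these shifts was not tested.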
